A study of Mus musculus with 2 samples.

Results

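The cholesterol synthesis and SREBP target genes are 28 genes of the 32285 that were counted, chosen by symbol, and each symbol was found in the data. They comprise 20 enzymes of the route from citrate to cholesterol, 5 genes of sterol sensing and transcription, and 3 genes of sterol handling. Their counts come from droplet single-cell RNA sequencing of aortic cells of ApoE-/- mice 20 weeks old, which lack apolipoprotein E and are prone to atherosclerotic plaque. The study has 2 samples, 1 labelled MSC_ITGB3 and 1 labelled HFD, and its design text describes HFD-fed animals that did or did not receive MSC_ITGB3. The sources used here give neither the number of animals nor the make-up of MSC_ITGB3. The counts fall into 2 libraries that no label ties to a sample, so they are called library 1 and library 2, and the treatment was not compared.

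Cells make cholesterol from acetyl-CoA through mevalonate, isoprenoid diphosphates, squalene and lanosterol. When sterol in the endoplasmic reticulum is low, SCAP escorts the SREBP transcription factors to the Golgi, where proteases release their active domain, which then raises transcription of most of these enzymes. When sterol is ample, INSIG proteins hold SCAP and SREBP back, and Insig1 is itself an SREBP target. In the vessel wall, macrophages that take up lipoprotein store surplus cholesterol as esters and become foam cells.

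SREBP is known to act through short promoter elements, but its part in the differences described below was not tested. Of the members called below between the libraries in chondrocytes, Fdps, Fdft1, Sqle and Stard4 had no matched promoter entry. Sc5d was also called and had an entry, but it is not printed. The promoters of the other 5 called members are printed. Each runs from 250 bases before the gene's start to 50 bases after it, 5′ to 3′ on the gene's strand, from RefSeq on GRCm38.p6. Capitals mark CACNCCAC, the core of the sterol response element, and CCAAT, the site class bound by NF-Y, on either strand; the marked motifs do not overlap.
Hmgcs1 (chr13:119690101-119690400, plus strand): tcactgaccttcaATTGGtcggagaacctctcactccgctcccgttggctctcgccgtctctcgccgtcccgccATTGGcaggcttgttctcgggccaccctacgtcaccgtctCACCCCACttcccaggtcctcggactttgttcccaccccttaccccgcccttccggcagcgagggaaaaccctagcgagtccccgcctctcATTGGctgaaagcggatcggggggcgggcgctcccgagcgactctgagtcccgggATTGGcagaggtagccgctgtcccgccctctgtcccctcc
Idi1 (chr13:8885356-8885655, plus strand): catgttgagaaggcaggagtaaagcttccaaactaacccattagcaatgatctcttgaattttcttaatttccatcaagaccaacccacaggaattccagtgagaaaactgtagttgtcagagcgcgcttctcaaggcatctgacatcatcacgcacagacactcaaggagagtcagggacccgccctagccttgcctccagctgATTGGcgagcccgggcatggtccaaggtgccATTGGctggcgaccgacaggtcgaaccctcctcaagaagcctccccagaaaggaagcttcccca
Cyp51 (chr5:4104648-4104947, minus strand): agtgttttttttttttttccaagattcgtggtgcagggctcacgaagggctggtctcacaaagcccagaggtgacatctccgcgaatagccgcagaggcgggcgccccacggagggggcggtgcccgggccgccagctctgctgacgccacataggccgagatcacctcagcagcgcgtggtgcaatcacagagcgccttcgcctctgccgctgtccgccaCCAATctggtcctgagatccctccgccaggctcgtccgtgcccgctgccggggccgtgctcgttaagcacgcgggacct
Msmo1 (chr8:64733529-64733828, minus strand): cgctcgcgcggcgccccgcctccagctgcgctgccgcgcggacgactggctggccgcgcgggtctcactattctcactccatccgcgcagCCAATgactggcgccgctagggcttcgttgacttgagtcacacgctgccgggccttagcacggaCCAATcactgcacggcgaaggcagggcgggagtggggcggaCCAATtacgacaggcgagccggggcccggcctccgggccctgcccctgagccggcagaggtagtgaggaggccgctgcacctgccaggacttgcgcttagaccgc
Insig1 (chr5:28071162-28071461, plus strand): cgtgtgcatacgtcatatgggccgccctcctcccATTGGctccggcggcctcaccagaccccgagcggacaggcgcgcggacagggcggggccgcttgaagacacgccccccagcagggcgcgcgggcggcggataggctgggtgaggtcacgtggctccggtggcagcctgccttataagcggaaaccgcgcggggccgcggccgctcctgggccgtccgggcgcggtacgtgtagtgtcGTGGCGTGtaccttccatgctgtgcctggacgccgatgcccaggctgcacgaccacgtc
Entries were matched by symbol for 24 of the 28 members, with 32 windows. Fdps, Fdft1, Sqle and Stard4 had none. CACNCCAC was present in the windows of Acat2, Hmgcs1 and Insig1, which is 3 of 24 genes, in 3 of 32 windows, against 6.24% of 32851 windows of all genes. The printed windows of Idi1, Cyp51 and Msmo1 held no exact match of it. The longer TCACNCCAC was present in Hmgcs1, 1 of 32 windows, against 1.24% of all windows. CCAAT was present in 22 of the 24 genes, in 23 of 32 windows, against 37.4% of all windows, and GGGCGG, the GC box, in 22 of 24 genes, in 26 of 32 windows, against 35.7%. A match describes letters in a window and is no evidence of binding. Only exact matches were searched, so a window without one is not shown to lack a sterol response element.

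Library 1 held 110257209 unique molecular identifiers (UMIs, each a counted transcript molecule) and library 2 held 124266676. A barcode, the tag of 1 droplet, was kept at 3000 or more UMIs with at most 20% of them mitochondrial, which left 6332 barcodes in library 1 and 6540 in library 2. Cell types were gated on 12 marker genes each, none of them a member. The gates held 81 barcodes in library 1 and 516 in library 2 for chondrocytes, 1171 and 1818 for smooth muscle, 1460 and 1243 for fibroblasts, 1071 and 291 for endothelium, and 449 and 434 for macrophages. Chondrocyte-gated barcodes summed to 13040 CPM (UMIs of a gene scaled to the gate's total, in the usual unit) of their 12 markers in library 1 and 25210 CPM in library 2, against 22.6 to 384.5 CPM in the other 4 gates, and they also held fibroblast markers at 37250 and 33850 CPM, close to the 43650 and 40120 CPM of fibroblast-gated barcodes. The libraries shared 17 kept barcode sequences, and leaving these out changed no count of members called between the libraries. Counts of members called against the other 4 types were not recomputed without them. Neither library has a replicate. Intervals in brackets are exact at 95% and reflect counting error alone, and no test was made.

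The 20 enzymes together took a similar share of UMIs in most gated types. Their summed level in chondrocyte-gated barcodes was 270 CPM (246 to 297) in library 1 and 509 CPM (490 to 528) in library 2. Smooth muscle had 328 and 341 CPM, fibroblasts 292 and 286 CPM, endothelium 318 and 327 CPM, and macrophages 293 and 306 CPM in the same order of libraries. Only the chondrocyte level of library 2 stood outside the range of 270 to 341 CPM spanned by the other 9 profiles. Against the other 4 types pooled, the chondrocyte ratio was 0.87 (0.79 to 0.96) in library 1 and 1.60 (1.53 to 1.67) in library 2, so its direction differed between the libraries.

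**Figure D1:**
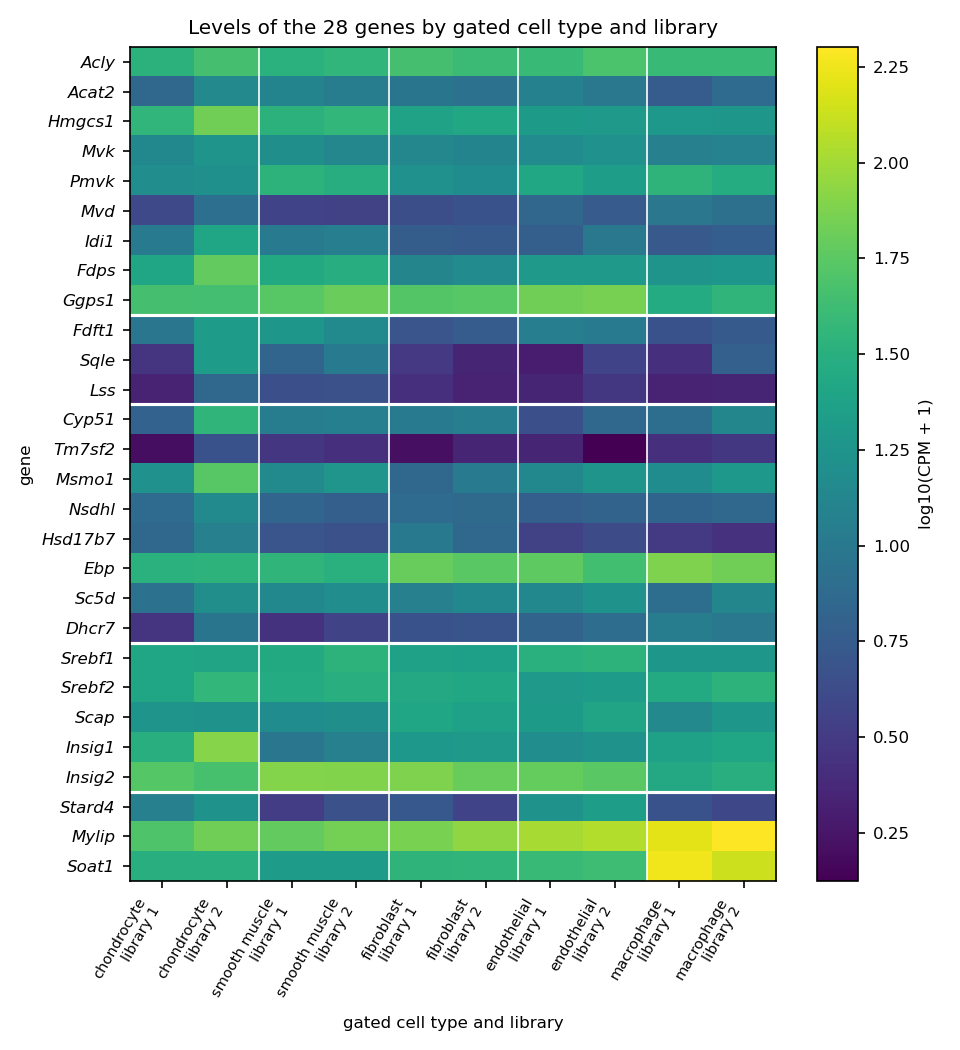
Level of each of the 28 genes, as log10(CPM + 1), in 5 gated cell types and 2 libraries; white horizontal lines separate the early, squalene, sterol, regulator and handling genes from top to bottom. The chondrocyte column of library 2 is brighter than that of library 1 at Hmgcs1, Idi1, Fdps, Fdft1, Sqle, Cyp51, Msmo1 and Insig1 but not at Ggps1, and Mylip and Soat1 are brightest in the macrophage columns.

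A member was called for a cell type when it was at least 2-fold higher or lower than in the other 4 types pooled, in both libraries. A filter of 10 CPM on the mean over the 10 profiles left 17 members, and 11 with lower levels were not tested. Few members were called. Chondrocytes had 1 member higher, Insig1, where 4.33% of 9212 genes were called, and 0 lower, where 12.6% were. Smooth muscle had 0 higher (4.88% of all genes) and 2 lower, Insig1 and Soat1 (14.4%). Fibroblasts had 0 higher (4.56%) and 1 lower, Msmo1 (8.61%). Endothelium had 0 higher (8.34%) and 1 lower, Cyp51 (11.9%). Macrophages had 2 higher, Mylip and Soat1 (9.54%), and 1 lower, Insig2 (22.3%). A pool of the other 4 types can hold a type where the gene is high. In library 2 the pools for Insig1, Msmo1 and Cyp51 held chondrocytes at 80.2, 53.3 and 34.4 CPM. The pools for Soat1 in smooth muscle held macrophages, at up to 178 CPM. These lower calls were not recomputed without that type, so a 2-fold difference from the remaining types is not shown. The 2 of 17 higher in macrophages lay near the share of all genes. With 17 tested, a difference of 1 member moves a share by several percentage points, and each of the 5 shares of members lower was below the share of all genes called lower. The median log2 ratio of the 17 members lay between -0.25 and 0.24 over the 10 profiles.

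Among the early enzymes, Ggps1, which makes the geranylgeranyl diphosphate that anchors many proteins to membranes, was described in full because it reached 50 CPM in a type in both libraries. It had 66.8 and 70.0 CPM in endothelium, 53.0 and 62.9 CPM in smooth muscle, 51.7 and 53.0 CPM in fibroblasts, 44.7 and 43.4 CPM in chondrocytes, and 28.3 and 34.1 CPM in macrophages, in library 1 and library 2. The order of the types was the same in both libraries, and endothelium stood clear of smooth muscle by its counting interval in library 1 but not in library 2. Acly, which makes cytosolic acetyl-CoA from citrate, ranged only from 31.5 to 47.5 CPM over the 10 profiles. Mvk, the mevalonate kinase, ranged from 10.9 to 16.9 CPM. Pmvk, which adds the next phosphate, had 33.0 and 29.0 CPM in smooth muscle and 33.5 and 28.7 CPM in macrophages, above 14.5 and 15.4 CPM in chondrocytes and 15.9 and 14.4 CPM in fibroblasts. Mvd, the decarboxylase that follows, stayed between 2.59 and 8.78 CPM and Acat2, the thiolase that joins acetyl-CoA units, between 4.72 and 13.1 CPM.

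Of the enzyme groups, the 3 enzymes that make squalene and turn it into lanosterol had the summed level that varied most between types, by ratio. All 3 were under the 10 CPM filter for calls between types, with means of 9.72 CPM for Fdft1, 5.12 for Sqle and 2.27 for Lss. None was therefore tested for a call, and no share of all genes stands beside the ratios of their sum. Their summed level in smooth muscle was 27.3 CPM in library 1 and 27.2 CPM in library 2. Fibroblasts had 7.63 and 7.09 CPM, macrophages 6.51 and 10.9 CPM, and endothelium 12.5 and 14.2 CPM, while chondrocytes had 11.5 CPM in library 1 and 46.3 CPM in library 2. Smooth muscle thus stood above fibroblasts, endothelium and macrophages in both libraries, with intervals that did not overlap theirs. Its ratio to the other 4 types was 2.91 (2.52 to 3.37) in library 1 and 1.55 (1.36 to 1.77) in library 2, the second against a pool that holds the library 2 chondrocytes. Fdft1, squalene synthase, accounted for 18.01 and 13.8 CPM of the smooth muscle sum and Sqle, the epoxidase that acts next, for 5.84 and 9.80 CPM. Lss, which closes the ring to lanosterol, stayed between 1.14 and 6.07 CPM in all profiles.

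Among the 8 enzymes from lanosterol to cholesterol, Ebp, the sterol isomerase, was at 74.99 and 66.8 CPM in macrophages, 61.7 and 54.2 CPM in fibroblasts, 56.7 and 42.9 CPM in endothelium, 34.5 and 31.2 CPM in smooth muscle, and 31.4 and 32.7 CPM in chondrocytes. Macrophages stood clear of fibroblasts by their counting intervals in both libraries. Msmo1, the methyl oxidase that starts removal of the C4 methyl groups, was at 6.205 CPM in library 1 and 9.63 CPM in library 2 of fibroblasts, against 13.3 and 23.9 CPM in the other 4 types, ratios of 0.47 (0.37 to 0.57) and 0.40 (0.33 to 0.49). Cyp51, the demethylase of lanosterol, was at 3.54 and 6.27 CPM in endothelium, against 9.03 and 14.1 CPM in the other 4 types, ratios of 0.39 (0.29 to 0.53) and 0.44 (0.26 to 0.70). The Cyp51 call was lost in library 2 when barcodes were thinned to 3000 UMIs (0.56) or weighted equally (0.57). Dhcr7, the reductase of the last step, had 9.92 and 8.90 CPM in macrophages and 1.78 and 2.71 CPM in smooth muscle, with chondrocytes at 1.81 and 8.27 CPM. Sc5d, the desaturase, ranged from 7.16 to 16.5 CPM. Nsdhl and Hsd17b7, which complete C4 demethylation, and Tm7sf2, a sterol reductase, reached at most 13.2, 10.9 and 3.68 CPM.

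The largest pattern lay between the 2 libraries within chondrocyte-gated barcodes. A member was called here at 1.5-fold or more, with 10 CPM or more on average over the libraries, which 21 members passed. In library 1 against library 2, 10 of the 21 were lower and 0 were higher, where 12.5% of 8433 genes were lower and 5.87% higher. Of the 10, Idi1, Fdft1, Sqle, Cyp51 and Sc5d were at 1.81 to 9.68 CPM in library 1 and passed the filter only through library 2. A gene that passes in this way can be called lower in library 1 but not higher, which bears on the counts and medians here. The shares of all genes were taken with the same filter. Of the 13 enzymes tested, 8 were lower. The median log2 ratio of library 1 over library 2 was -0.92 over the 13 enzymes, 12 of them below 0, and -0.57 over the 21 members, against -0.09 over all genes tested.

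Hmgcs1, the synthase that commits acetyl units to HMG-CoA, was at 35.1 CPM (26.6 to 45.3) in library 1 and 66.6 CPM (59.9 to 73.8) in library 2, a ratio of 0.53 (0.39 to 0.70). Idi1, the isomerase that makes the second isoprenoid unit, was at 9.68 CPM in library 1 and 25.01 CPM in library 2, a ratio of 0.39 (0.22 to 0.65). Fdps, farnesyl diphosphate synthase, was at 24.8 and 59.2 CPM, a ratio of 0.42 (0.29 to 0.58). All 3 of these early enzymes were lower in library 1, with intervals that excluded 1. Fdft1 was at 8.47 CPM in library 1 and 20.2 CPM in library 2, a ratio of 0.42 (0.22 to 0.73). Sqle had 3 UMIs in library 1, or 1.81 CPM, and 109 UMIs in library 2, or 20.0 CPM, a ratio of 0.09 (0.02 to 0.27). Sqle and Cyp51 had the lowest ratios of the called members. Cyp51 was at 5.44 CPM in library 1 and 34.4 CPM in library 2, a ratio of 0.16 (0.07 to 0.31). Msmo1 was at 15.7 and 53.3 CPM, a ratio of 0.29 (0.19 to 0.44), and Sc5d at 7.86 and 14.7 CPM, a ratio of 0.53 (0.27 to 0.97). The intervals of these 8 enzymes all excluded 1.

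The remaining called members were Insig1 and Stard4, described with the regulators and handling genes. Of the early enzymes that were not called, Ggps1 was at 44.7 CPM in library 1 and 43.4 CPM in library 2, a ratio of 1.03, Pmvk at 14.5 and 15.4 CPM, a ratio of 0.94, Mvk at a ratio of 0.75 (0.44 to 1.22) and Acly at 32.7 and 44.7 CPM. Ebp was at 31.4 and 32.7 CPM, a ratio of 0.96 (0.69 to 1.32). Without thinning, Ggps1, Pmvk and Ebp had ratios near 1, so the difference was not seen in every enzyme. The interval of Pmvk was 0.57 to 1.49, and Pmvk was called lower when barcodes were thinned to 3000 UMIs. The 7 members under the 10 CPM filter, namely Acat2, Mvd, Lss, Tm7sf2, Nsdhl, Hsd17b7 and Dhcr7, had ratios from 0.16 to 0.56, on 1 to 11 UMIs in library 1.

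**Figure D2:**
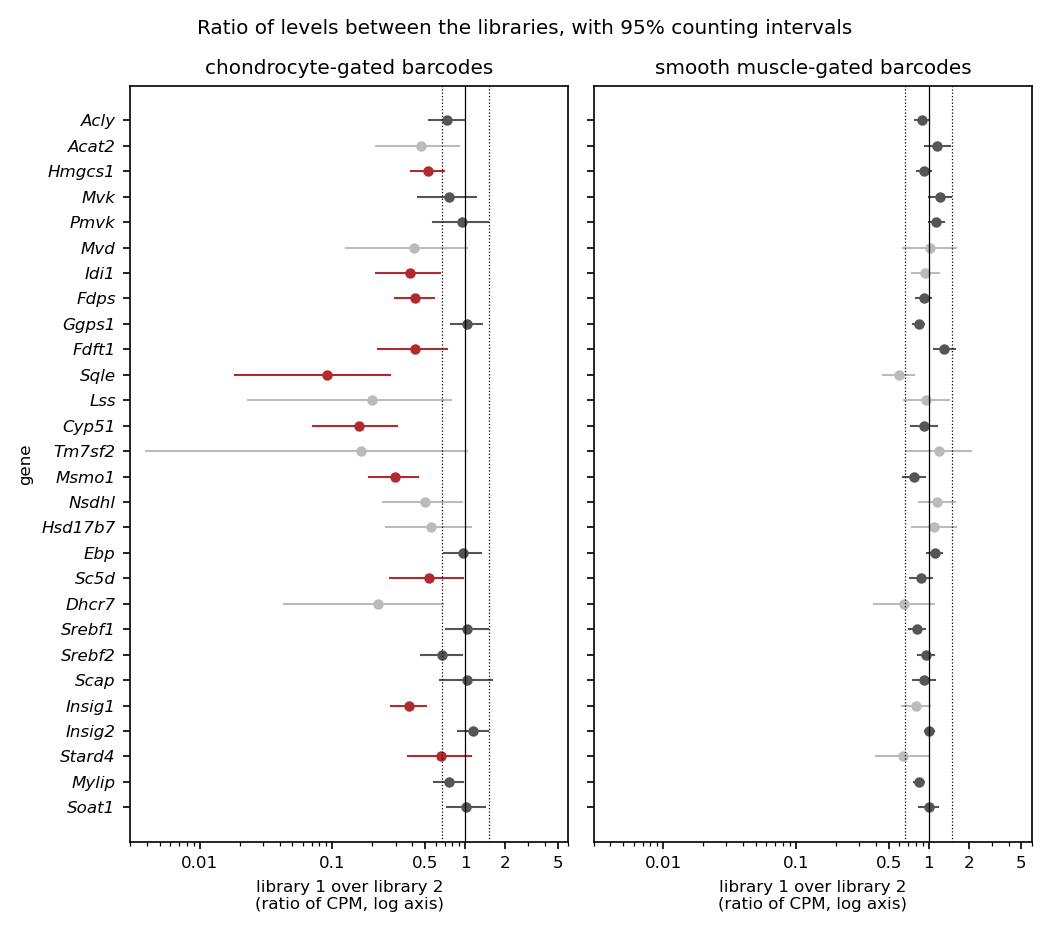
Ratio of CPM of library 1 over library 2 for each member, on a log axis, in chondrocyte-gated barcodes (left) and smooth muscle-gated barcodes (right), with exact 95% counting intervals; dotted lines mark 1.5-fold, red points are called members, dark points tested and not called, and light points under the filter. The 10 red points lie between 0.09 and 0.66 in chondrocytes and none is red in smooth muscle.

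In the other 4 gated types, 0 members were called in either direction between the libraries. The background was 1.69% of genes lower and 2.75% higher in smooth muscle, 1.88% and 1.72% in fibroblasts, 5.3% and 1.29% in endothelium, and 10.9% and 2.84% in macrophages. Library 1 over library 2, the enzyme sum was 0.53 (0.48 to 0.59) in chondrocytes. It was 0.96 (0.92 to 0.998) in smooth muscle, 1.02 (0.98 to 1.07) in fibroblasts, 0.97 (0.91 to 1.04) in endothelium and 0.96 (0.89 to 1.03) in macrophages, and TMM scaling, which moves all genes by 0.09 to 0.21 on the log2 scale, put each of these 4 above 1 while the chondrocyte ratio became 0.59. The difference between these ratios was not tested, since each rests on 1 library a side.

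Chondrocyte-gated barcodes differed in depth between the libraries, with a median of 15246 UMIs in library 1 and 4511 in library 2. The enzyme sum was therefore read at matched depth. From 3000 to below 5000 UMIs it was 291 CPM (199 to 411) in 29 barcodes of library 1 and 457 CPM (418 to 498) in 302 of library 2. From 5000 to below 10000 UMIs it was 262 and 511 CPM, and from 10000 to below 20000 UMIs 324 and 483 CPM, on 11 and 8 barcodes of library 1 and 100 and 26 of library 2. At 20000 or more it was 263 CPM (237 to 292) in 33 barcodes of library 1 and 530 CPM (505 to 555) in 88 of library 2. Library 1 was lower in all 4 ranges of depth, and its interval overlapped that of library 2 in the range from 10000 to below 20000. Insig1 was likewise lower in library 1 in each range, at 21.6 to 43.6 CPM against 78.0 to 90.6 CPM in library 2, but on 3 UMIs in each of the 3 shallower ranges, where the intervals overlapped.

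**Figure D3:**
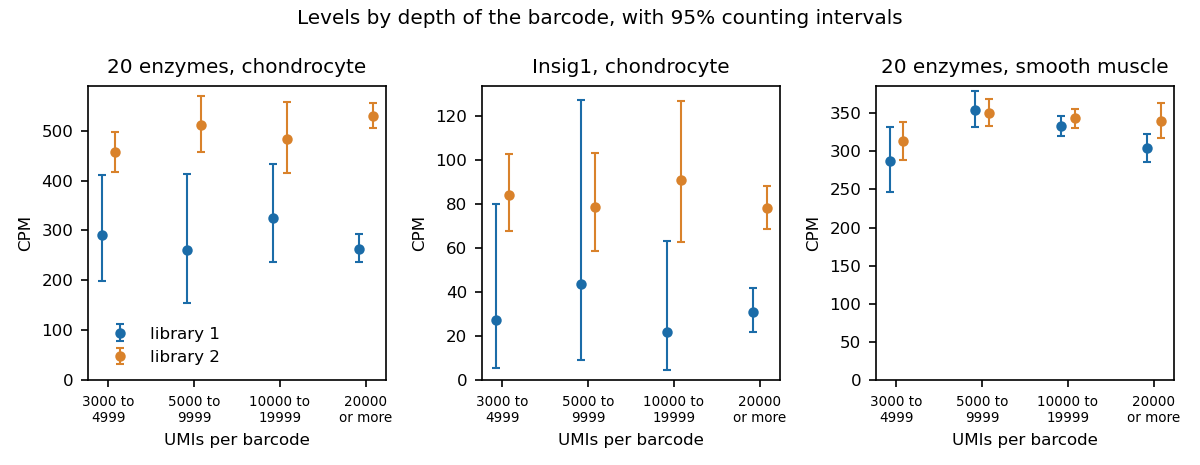
Level in CPM, with exact 95% counting intervals, in 4 ranges of UMIs per barcode for library 1 and library 2; the panels show the sum of 20 enzymes in chondrocytes, Insig1 in chondrocytes, and the enzyme sum in smooth muscle. In chondrocytes library 1 lies below library 2 in each range, and in smooth muscle the libraries lie close together.

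Other features of the chondrocyte gate moved with the library. The summed chondrocyte markers were at 13040 CPM in library 1 and 25210 CPM in library 2, cycling markers (Mki67, Top2a, Cdk1 and Ccnb1, none at 0) at 206 and 42.3 CPM, smooth muscle markers at 1645 and 3333 CPM, pericyte markers at 100.4 and 201.7 CPM, and the estimated free RNA at 9.23% and 11.8%. Among barcodes with Col2a1, the main cartilage collagen, at 1000 CPM or more, 68 in library 1 and 491 in library 2, the enzyme sum was 288 and 520 CPM, a ratio of 0.55 (0.50 to 0.62). Without cycling barcodes the ratio was 0.57, and with free RNA subtracted 0.50. The part of the marker differences beyond these splits was not tested. Per barcode, the median enzyme level was 236 CPM in library 1, with quartiles of 113 and 309 CPM, and 301 CPM in library 2, with quartiles of 139 and 588 CPM, so the libraries overlapped widely barcode by barcode and differed most in the upper quartile. These quartiles were not matched for depth. No enzyme UMI was found in 13 of 81 barcodes of library 1 and 105 of 516 of library 2. The part of depth in this spread was not tested. The 10% of barcodes with most enzyme UMIs held 38.9% of them in library 1 and 60.8% in library 2, where depth per barcode also varied.

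Over 15 ways of processing, 6 members were lower in chondrocytes of library 1 each time, namely Cyp51, Fdft1, Fdps, Idi1, Insig1 and Msmo1. The share of all genes lower was 12.5% as reported, and ranged from 8.01% with TMM scaling to 38.5% with no filter. With thinning it was 23.6%, and 10 members were lower, of which 6 were among the reported 10. The others were Acly, Pmvk, Srebf1 and Srebf2. With equal weight per barcode it was 17.9%, and 9 members were lower, of which 7 were among the reported 10. The others there were Mylip and Srebf2. Sqle dropped out with a minimum of 2000 UMIs and with thinning, where it no longer passed the filter. Hmgcs1 and Sc5d dropped out with thinning, at 0.77 and 0.87, and with equal weight per barcode, at 0.78 and 0.83, and Sc5d also with the looser gate. Stard4 was lost in 7 of the alternatives, namely the 2000 UMI minimum, the mitochondrial limit of 10%, TMM scaling, thinning, equal weight per barcode, without cycling barcodes and with Col2a1 at 1000 CPM or more. Some of the counts can be shared with other genes: of the 31-base words in the last 500 bases of the transcript, 79.8% for Fdps, 44.7% for Idi1 and 25.3% for Acat2 also occur in other annotated genes, which for Acat2 is Acat3. Tm7sf2 overlaps Vps51 on its own strand, and Fdft1, Cyp51, Lss, Hmgcs1, Ggps1 and Srebf1 overlap a gene on the opposite strand, so their levels are uncertain to that extent.

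Insig1, the sterol-regulated anchor that retains SCAP, was the regulator that varied most. It was at 30.2 CPM (22.4 to 39.9) in library 1 and 80.2 CPM (72.8 to 88.0) in library 2 of chondrocytes, a library ratio of 0.38 (0.28 to 0.51). Against 15.1 and 15.4 CPM in the other 4 types, chondrocytes were 2.01 times (1.48 to 2.67) and 5.22 times (4.59 to 5.93) higher. Chondrocytes ranked first in both libraries, but in library 1 the interval did not clear that of macrophages, at 22.3 CPM, and the 2-fold call there was lost with a stricter gate (1.97) or against the mean of the other 4 levels (1.90). In library 1 macrophages led from 3000 to below 5000 UMIs, at 37.2 against 27.3 CPM in chondrocytes. They also led from 10000 to below 20000, at 29.3 against 21.6 CPM. Chondrocytes led from 5000 to below 10000, at 43.6 against 39.8 CPM, on 3 UMIs in each of these ranges. At 20000 or more they led by 30.7 (22.0 to 41.6) to 11.5 CPM (8.03 to 15.9), on 41 of their 50 UMIs. In library 2 chondrocytes led in every range, at 78.0 to 90.6 against 17.0 to 33.7 CPM. Smooth muscle was lowest at 8.62 and 10.7 CPM, against 17.9 and 33.5 CPM in the other 4 types, ratios of 0.48 (0.39 to 0.58) and 0.32 (0.27 to 0.38), and the call was lost in library 1 with TMM scaling (0.51). After thinning to 3000 UMIs, Insig1 was found in 11.1% (5.21 to 20.0) of chondrocyte barcodes of library 1 and 19.8% (16.4 to 23.5) of library 2, against 2.82% and 3.03% in smooth muscle. Unthinned, the shares were 37.0% and 32.9% in chondrocytes and 8.88% and 9.02% in smooth muscle.

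Insig2, the second anchor, which is not known as an SREBP target, followed another order. It was at 26.2 CPM (library 1) and 30.2 CPM (library 2) in macrophages, against 70.5 and 65.8 CPM in the other 4 types, ratios of 0.37 (0.31 to 0.43) and 0.46 (0.38 to 0.55). Smooth muscle led at 77.7 and 76.8 CPM, followed by fibroblasts at 75.4 and 62.0 CPM, endothelium at 59.95 and 54.5 CPM and chondrocytes at 52.0 and 45.2 CPM. The order was the same in both libraries, and smooth muscle and fibroblasts were not separated by their intervals in library 1. The macrophage call was lost in library 2 with a minimum of 2000 UMIs (0.51), thinning (0.55), equal weight per barcode (0.53) or the mean of the other 4 levels (0.51). In chondrocytes the library ratio of Insig2 was 1.15 (0.89 to 1.48), while that of Insig1 was 0.38.

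Srebf2, which encodes the SREBP that acts mainly on cholesterol genes, was at 24.2 CPM in library 1 and 35.9 CPM in library 2 of chondrocytes, a ratio of 0.67 (0.47 to 0.95) that just missed the 1.5-fold call. Its lowest levels were in endothelium, at 18.7 and 20.1 CPM. Srebf1, which encodes the SREBP tied more to fatty acid genes, was at 24.8 and 23.9 CPM in chondrocytes, a ratio of 1.04 (0.71 to 1.48), and ranked first in endothelium at 31.2 and 33.3 CPM, with an interval not clear of that of smooth muscle in either library. Counts of Srebf1 do not separate its promoter-specific forms. Scap ranged from 13.0 to 24.1 CPM and was at 16.9 and 16.4 CPM in chondrocytes, a ratio of 1.03 (0.65 to 1.60). The intervals of Srebf1 and Scap included 1, and they do not show that these levels were equal. With thinning to 3000 UMIs, Srebf1 and Srebf2 were called lower in library 1.

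**Figure D4:**
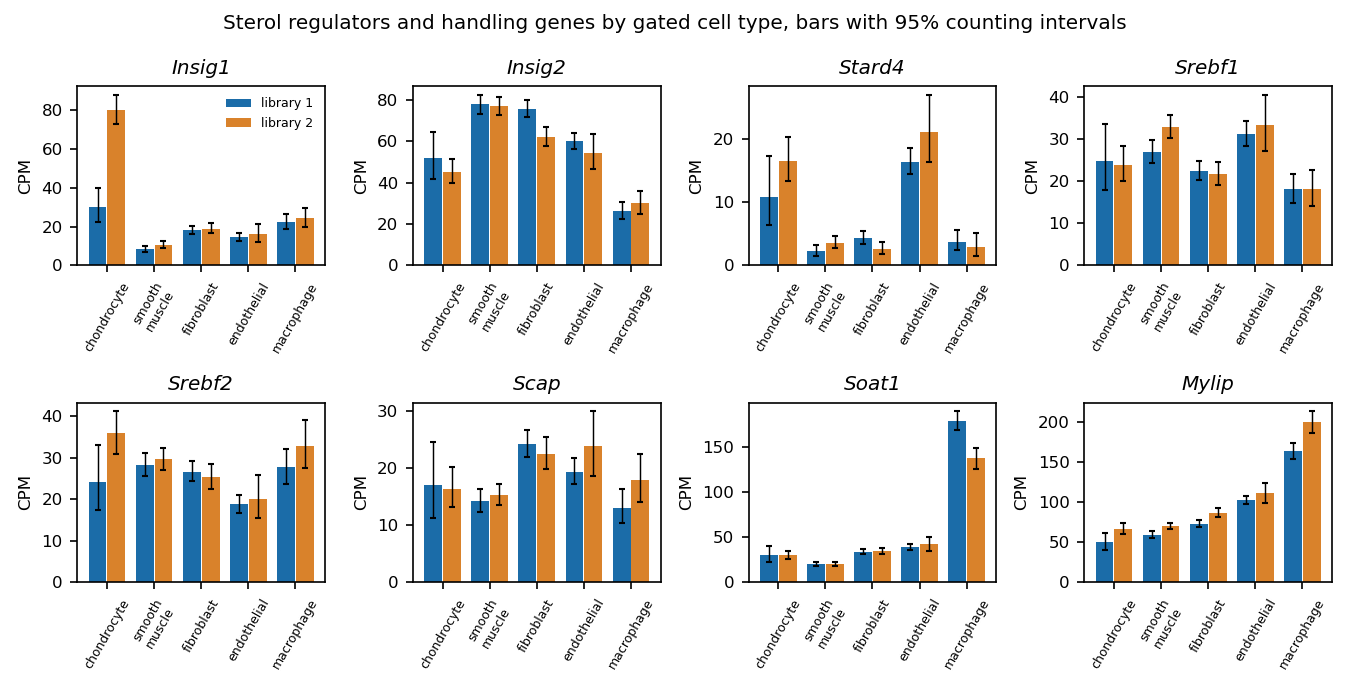
Level in CPM of 5 regulators and 3 handling genes by gated cell type, bars for library 1 (left of each pair) and library 2 with exact 95% counting intervals. Insig1 stands highest in chondrocytes of library 2, Insig2 lowest in macrophages, Stard4 highest in endothelium, and Soat1 and Mylip highest in macrophages.

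Soat1, which esterifies cholesterol for storage in droplets, was at 178 CPM (168 to 189) in library 1 and 137 CPM (126 to 149) in library 2 of macrophages. The other 4 types had 31.1 and 27.5 CPM, so macrophages were 5.74 times (5.30 to 6.21) and 4.97 times (4.47 to 5.52) higher. The order after macrophages was endothelium at 39.1 and 41.6 CPM, fibroblasts at 33.6 and 34.5 CPM, chondrocytes at 30.2 and 29.6 CPM, and smooth muscle at 19.8 and 19.8 CPM, the same in both libraries. Smooth muscle was called lower, at 0.34 (0.30 to 0.39) and 0.38 (0.34 to 0.43) of the other 4 types. The level in macrophages moved with depth per barcode. At 20000 or more UMIs it was 240 CPM (223 to 258) in 95 barcodes of library 1 and 208 CPM (183 to 235) in 37 of library 2, while the 3 shallower ranges had 102 to 121 CPM in library 1 and 77.1 to 126 CPM in library 2. In library 1 the deepest range held 753 of the 1097 Soat1 UMIs of macrophages. In each range macrophages stood above the other 4 types, which reached at most 47.6 CPM. The part of depth in the level was not tested. Thinned shares of barcodes with a Soat1 UMI were 25.6% (21.6 to 29.9) and 23.0% (19.2 to 27.3) in macrophages, against 5.72% and 5.39% in smooth muscle, at median depths of 9396 and 6056 UMIs in macrophages and 11015 and 8692 in smooth muscle. Unthinned, they were 58.8% and 43.1% in macrophages and 19.1% and 15.8% in smooth muscle.

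Mylip, the ubiquitin ligase known for marking lipoprotein receptors for degradation and a target of the LXR receptors, was at 164 and 199 CPM in macrophages, against 76.9 and 77.7 CPM in the other 4 types, ratios of 2.13 (1.98 to 2.28) and 2.56 (2.37 to 2.77). Endothelium had 102 and 111 CPM, fibroblasts 72.8 and 86.6 CPM, smooth muscle 59.1 and 69.8 CPM, and chondrocytes 49.6 and 66.0 CPM, the same order in both libraries. At 3000 to below 5000 UMIs of library 1, however, Mylip was at 103 CPM (75.6 to 137) in macrophages and 114 CPM (95.4 to 135) in endothelium, so the lead was not seen there. In the other 3 ranges of library 1 and the 4 of library 2, macrophages were at 131 to 258 CPM and endothelium at 97.4 to 124 CPM, with overlapping intervals in the shallowest and the deepest range of library 2. Stard4, a soluble carrier of sterol between membranes, was at 16.4 and 21.1 CPM in endothelium and 10.9 and 16.5 CPM in chondrocytes, and at 2.28 to 4.33 CPM in the other 3 types. Endothelium and chondrocytes were not separated by their intervals in either library. The library ratio of Stard4 in chondrocytes, 0.66 (0.37 to 1.10), included 1, and thinning turned it to 1.02.

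Genes next to the route were counted from 4 further lists. Of 14 fatty acid synthesis genes regulated by SREBP, 12 were tested between the libraries in chondrocytes, and 4 were lower in library 1, Scd2, Elovl6, Fads2 and Lpin1, while 1, Me1, was higher, where 12.5% of all genes were lower and 5.87% higher. Scd2, a desaturase that makes oleate, was at 50.8 CPM in library 1 and 116 CPM in library 2, a ratio of 0.44 (0.34 to 0.55), and Fads2, a desaturase of longer chains, at 7.86 and 26.3 CPM, a ratio of 0.30 (0.16 to 0.53). Fasn, the fatty acid synthase, was at 29.6 and 27.9 CPM, a ratio of 1.06 (0.75 to 1.47). Fads2, and Elovl6 at 9.68 and 16.9 CPM, were below 10 CPM in library 1 and passed the filter only through library 2. The list's median log2 ratio was -0.24. Of 7 SREBP processing genes none was called, with a median of -0.02, of 9 isoprenoid branch genes 1 of 7 tested was lower, Pdss2, and of 8 oxysterol and LXR genes 1 of 5 tested was higher, Cyp7b1. On so few genes, the single calls among Me1, Pdss2 and Cyp7b1 are not set apart from the shares of all genes.

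Between cell types, 3 of 7 tested oxysterol and LXR genes were called higher in macrophages, where 9.54% of all genes were, and 1 lower, where 22.3% were. Abca1, an exporter of cholesterol, was at 533 and 414 CPM in macrophages, against 200.1 and 146.2 CPM in the other 4 types. Abcg1, another exporter, was at 366 and 310 CPM against 30.9 and 19.6 CPM, and Nr1h3, the LXR receptor alpha, at 56.6 and 22.5 CPM against 13.7 and 11.0 CPM. Cyp7b1, an oxysterol hydroxylase, was the lower one, at 1.63 and 4.20 CPM against 15.0 and 13.2 CPM, and Nr1h2, Lpcat3 and Cyp27a1 were not called. In smooth muscle 4 of the 7 were lower, Abca1, Abcg1, Nr1h3 and Cyp27a1, where 14.4% of all genes were. Chondrocytes had 2 lower, Abcg1 and Cyp27a1 (12.6% of all genes), fibroblasts 1, Abcg1 (8.61%), and endothelium 1, Cyp27a1 (11.9%). Called higher were Cyp27a1 and Cyp7b1 in fibroblasts (4.56%) and Cyp7b1 in chondrocytes (4.33%). For Abca1, Abcg1 and Nr1h3, the pools behind these lower calls held the macrophages at the levels above. Endothelium had Scd2 at 166 and 182 CPM, against 68.6 and 71.5 CPM, Elovl5 at 96.7 and 85.8 CPM, against 32.1 and 29.6 CPM, and Pggt1b, Erlin2 and Lpcat3 were called higher as well. These are 2 of 11 fatty acid genes and 1 of 7 in each of the other 3 lists, where 8.34% of all genes were called higher. Chondrocytes had Acaca, the carboxylase that starts fatty acid synthesis, at 84.7 and 80.5 CPM, against 33.1 and 36.1 CPM, and this level did not follow the library difference of Scd2. Acaca was 1 of 11 fatty acid genes called higher there, where 4.33% of all genes were. Mid1ip1 was 1 of 11 called lower in chondrocytes, where 12.6% were. In macrophages 3 of the 11 were called lower, Fasn, Fads2 and Me1, where 22.3% of all genes were.

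**Figure D5:**
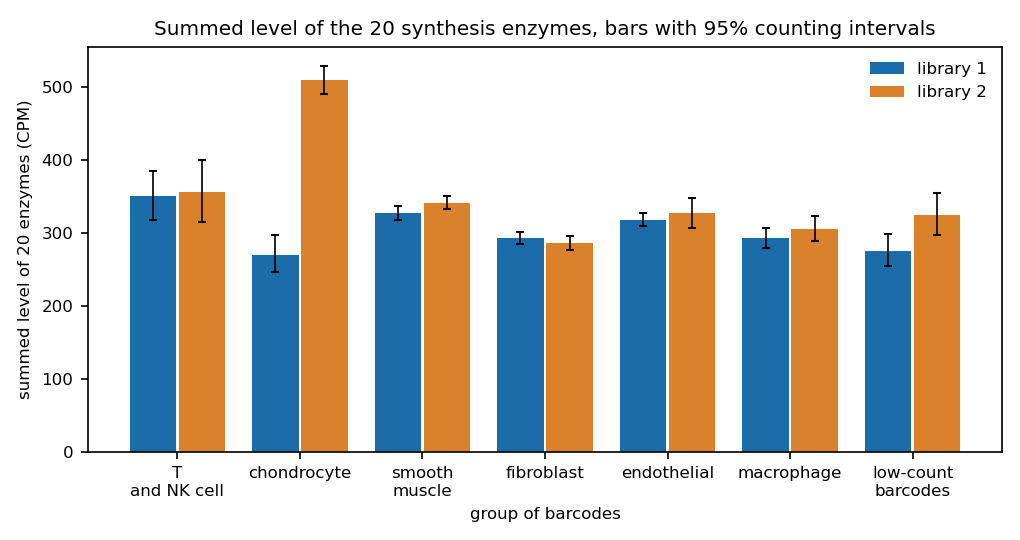
Summed level of the 20 enzymes in CPM for library 1 (left of each pair) and library 2 in 6 gated types and in low-count barcodes of 10 to 100 UMIs, with exact 95% counting intervals. Chondrocytes of library 2 stand at 509 CPM, and the other bars lie between 270 and 355 CPM.

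T and NK cell-gated barcodes (181 in library 1 and 129 in library 2) had an enzyme sum of 350 and 355 CPM. In them 1 of 19 tested members was 2-fold higher than in the 5 gated types in both libraries, where 13.5% of genes were, and 1 was lower, where 19.6% were. Stard4 was the higher one, at 24.5 and 22.9 CPM against 7.21 and 6.25 CPM. Insig2 was the lower one, at 22.9 and 28.02 CPM against 65.5 and 62.3 CPM.

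Neutrophil-gated barcodes were few, 69 in library 1 and 17 in library 2. Sc5d was at 108 CPM on 31 UMIs in library 1 and 52.9 CPM on 4 UMIs in library 2, against 11.4 and 14.1 CPM in the 5 types, and Srebf2 at 62.8 and 92.6 CPM against 24.9 and 28.9 CPM. These were the 2 members called higher of 16 tested, where 10.1% of genes were. The 5 called lower, where 19.4% were, were Fdps, Ebp, Insig2, Srebf1 and Acly, on 0 to 7 UMIs a library.

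Likeness between members was described by Pearson's r of log2(CPM + 1) between each member and the sum of the other enzymes over the 10 profiles, which share libraries and depth. Values were highest for Lss at 0.86, Sqle at 0.81, Idi1 at 0.79, Msmo1 at 0.78 and Fdps at 0.77, and lowest for Ebp at -0.65 and Soat1 at -0.27. Without both chondrocyte profiles, 8 remained and the order changed. Idi1 stood at 0.88, Fdft1 at 0.81 and Fdps at 0.80, Msmo1 at 0.46, Hmgcs1 at 0.13 and Cyp51 at -0.26, and Insig1 at -0.75 against 0.53 with all 10. The likeness of Hmgcs1, Cyp51 and Insig1 to the other enzymes rested on the chondrocyte profiles.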

How the data were processed

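The authors deposited 1 unfiltered matrix of raw UMI counts per gene and barcode, which per the file headers came from Cell Ranger 6.0.1. Per the labels' protocols, the kit was the Chromium 3' v3 chemistry. The build is mm10, per the submitters' processing notes, and the sources used here name neither the annotation nor the strand setting. Barcode suffixes define the 2 libraries.

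A barcode entered a gate with 4 or more of that type's 12 markers, each at 2 or more times its mean over kept barcodes, in 1 type only. Barcodes in several gates (658) or with 3 or more markers of another type (272) were left out, and no doublet caller was run. UMIs were summed per gate and library and given as CPM, with exact Poisson, conditional binomial or Clopper-Pearson intervals. Members described in full reach 50 CPM in a type in both libraries (5 members) or are called. All other members are given by range. Members and lists were chosen with earlier results of these data known. Tools were Python 3.11.15, numpy 2.4.6, scipy 1.17.1 and pandas 2.3.3. Alternatives changed the UMI minimum, mitochondrial limit, gate, scaling, free RNA, filter and weighting of barcodes. A further gated cell type is not reported here.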

Additional observations from a re-analysis of the deposited data

How the results depend on the processing

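No paired analysis was possible because each library is 1 sample and no test was made. Counts of called members are small, so a shift of 1 member changes them by over 1.5 times, and the cause of these shifts was not tested. Of 333 counts and sums recomputed, 277 kept within 1.5 times the reported count or within its interval.

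For members against the other 4 types, chondrocytes had 1 higher as reported, 0 with the stricter gate or against the mean of the other 4 levels, 2 with thinning and 5 in library 2 alone. Smooth muscle had 2 lower, 1 with TMM scaling and 4 with no filter. Fibroblasts had 1 lower, and 2 with the 5000 UMI minimum, the stricter gate, CPM without mitochondrial, ribosomal protein and marker genes, free RNA subtracted, no filter, thinning, or library 2 alone. Endothelium had 0 higher and 1 with CPM without those genes or with no filter. It had 1 lower, 2 with no filter, and 0 with thinning or equal weight per barcode. Macrophages had 1 lower, 0 with the 2000 UMI minimum, equal weight per barcode or the mean of the other 4 levels, 2 with the 5000 UMI minimum, the stricter gate or library 2 alone, 3 with CPM without those genes and 4 with no filter.

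Between libraries, no filter gave 17 members lower in library 1 in chondrocytes (10 as reported), where 38.5% of 19280 genes were lower (12.5% as reported), and 3, 2, 4 and 3 lower in smooth muscle, fibroblasts, endothelium and macrophages, with 2 higher in fibroblasts and 1 in endothelium (0 as reported in each). Thinning gave 1 higher in chondrocytes, smooth muscle, fibroblasts and macrophages each, 2 higher and 1 lower in endothelium, and 4 lower in macrophages. In macrophages 1 was lower with the 2000 or 5000 UMI minimum or the looser gate, 2 with CPM without those genes and 3 with equal weight per barcode, and 1 was higher with TMM scaling. In fibroblasts 1 was lower with CPM without those genes. The Stard4 ratio in chondrocytes reversed to 1.019 with thinning, and the cause was not tested.

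The chondrocyte enzyme ratio of 0.53 was 0.4627 with the stricter gate, 0.5872 with TMM scaling, 0.6499 with thinning and 0.6372 with equal weight per barcode. With TMM scaling the enzyme ratio was 1.018 in smooth muscle, 1.093 in fibroblasts, 1.067 in endothelium and 1.104 in macrophages, and thinning gave 1.111 in endothelium. Depth limits the low members most, and the few UMIs summed over the 81 chondrocyte barcodes of library 1 set the width of their intervals. The intervals of levels and ratios hold no spread between barcodes. In library 1, 33 of the 81 chondrocyte barcodes held 352 of the 447 enzyme UMIs. Nothing here measures the spread between animals.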
